A study of Mus musculus with 15 samples.

Results

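The 10 genes described here encode the transforming growth factor beta (TGF-beta) ligands Tgfb1, Tgfb2 and Tgfb3 and the matricellular and matrix proteins Ctgf, Thbs1, Thbs4, Postn, Tnc, Fn1 and Sparc. They were taken by symbol from a table of 16199 genes, and all 10 symbols were found. Ctgf is the older name of Ccn2. Averaged over all hearts, 9 of the 10 genes reached 1 RPKM and were tested. Tnc, at a mean of 0.23 RPKM, was below that minimum and is described by its values and by a fit without the minimum.

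Poly(A)+ RNA was sequenced from the ventricles of 15 adult FVB mice aged 14 to 16 weeks, after removal of the atria and a small portion of the apex, to follow the response of the heart to the RNA-binding protein CELF2. Expression was given in RPKM, a read count divided by the length of constitutive coding sequence and by the number of uniquely mapped reads. The 12 induced mice were labelled MHCrtTA/TRECUGBP2 and ate food with 2 g/kg doxycycline for 12 h, 24 h, 72 h or 7 d, with 3 mice at each time. The 3 control mice were labelled MHCrtTA, lacked the inducible transgene, and ate the same food for 72 h. MHCrtTA is a reverse tetracycline transactivator under the cardiomyocyte promoter of Myh6, and TRECUGBP2 is a doxycycline-responsive transgene for FLAG-tagged human CELF2. The inducible transgene was therefore driven in cardiomyocytes. Most of the genes described here are known as products of fibroblasts, smooth muscle or other cells that are not cardiomyocytes. Induced mice were the first-generation offspring of a cross of both lines. Each library came from a separate animal. Because the control mice were on doxycycline for 72 h, only the 72 h group had the same length of doxycycline, and the other groups differed from control in both transgene and time on the drug. The 4 comparisons with control share the same 3 control hearts.

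TGF-beta is secreted as a latent complex, is held in the matrix, and after release signals through a pair of kinase receptors to SMAD transcription factors, which raise the mRNA of collagens and of matricellular genes. Matricellular proteins are secreted into the matrix without being its main scaffold, and they adjust how cells attach, how collagen is assembled and how growth factors are presented. In the adult heart most of them are kept low and are known to rise in fibroblasts and myofibroblasts during scar formation and pressure overload.

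CELF proteins bind GU-rich elements, which many target mRNAs carry in the 3′ UTR. As a look at whether the 10 mRNAs hold such an element, the sense strand of the 3′ UTR of 1 coding transcript for each gene (GENCODE annotation of the NCBIM37 build, the same assembly as mm9) was searched for TGTTTGT, the 7-base core of a GU-rich element written as DNA, with overlapping matches counted. Only Tgfb2, with 2 matches, and Fn1, with 1, held it, and the other 8 genes had 0. The 27-base windows below show these 3 matches because they are the only ones among the 10 genes; capitals mark the motif, and all 3 lie in the terminal, 3′ UTR part of genes on the minus strand.
Tgfb2, chr1:188449239-188449265, minus strand: acgaccatgaTGTTTGTgacaggaggg
Tgfb2, chr1:188449134-188449160, minus strand: gcttgtgttcTGTTTGTtaaaactggc
Fn1, chr1:71632262-71632288, minus strand: ttctcttaccTGTTTGTtatttatcaa
Within the last 500 bases of the 3′ UTR, a stretch that 13123 genes reach, 1740 genes (13.3%) held the motif. Among the 10 genes, 8 have a 3′ UTR of that length and only Fn1 held it there. A match describes letters and is not a measured binding site.

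The induced gene was checked first. Celf2, listed as Cugbp2, was at 9.82 ± 1.37 RPKM (SD, n = 3) in control hearts and at 123 ± 60.0, 150 ± 33.2, 230 ± 26.4 and 324 ± 54.8 RPKM (SD, n = 3 each) at 12 h, 24 h, 72 h and 7 d, so every induced heart lay above every control heart. Read totals per library are not given in the table and depth is unknown, so precision is described by the spread between hearts. The sample titles carry a number with 3 values, called title codes A, B and C here, and the sources used here do not say what it means. Control, 12 h and 24 h each had 1 heart of code A and 2 of code B, 72 h had 2 of code A and 1 of code C, and 7 d had 1 of code A and 2 of code C. Hearts of code C had 1463 to 1551 genes listed at 0 against 1707 to 1977 in the others. The summed Y-linked mRNA was 0.03 to 0.06 RPKM in all hearts at 12 h and 53.6 to 77.8 RPKM in all hearts at 72 h and 7 d, with both kinds of heart among controls and at 24 h. By this mRNA the hearts at 12 h came from females and those at 72 h and 7 d from males, so sex was not balanced over time. In 7 d against 12 h, sex and time are confounded and cannot be told apart. A fit with this mRNA as a covariate rests there mainly on the control and 24 h hearts.

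Against control, none of the 9 tested genes was called at any time of CELF2 induction in the fit without covariates (limma on log2(RPKM + 0.5), Benjamini-Hochberg adjusted p under 0.05 over 10557 genes). The counts were 0 of 9 at 12 h, 24 h, 72 h and 7 d, where 0.388%, 0.0947%, 0.597% and 9.99% of all tested genes were called. At an unadjusted p under 0.05, the numbers of the 9 genes were 3, 1, 3 and 0. The share of all tested genes at that threshold was not counted in any comparison. The median log2 difference over all tested genes was -0.10, -0.10, -0.08 and 0.03 at 12 h, 24 h, 72 h and 7 d against control. With median-ratio scaling the numbers at an unadjusted p under 0.05 were 1, 0, 3 and 0. The counts of called genes depend on the fit. With the title code as a covariate, Postn was called lower at 12 h, 72 h and 7 d and Fn1 at 72 h. With library quality weights 2, 4 and 1 members were called lower at 12 h, 72 h and 7 d. In that weighted fit 1355, 3955 and 3317 of all 10557 tested genes were called in these comparisons. In the fit of all hearts without covariates or weights, no estimate of the 9 genes against control reached a doubling or a halving. The largest there was Ctgf at 72 h (log2 difference -0.88). That difference was past a halving with library quality weights (-1.15) and without the third 72 h heart (-1.27). The 95% intervals of the differences at 7 d ran from -1.22 at the lowest to 0.68 at the highest on the log2 scale. Among comparisons of induced hearts with each other, Sparc alone passed, and it was higher at 7 d than at 12 h and 24 h. In RNA from whole ventricle, fewer cells of a type and less RNA per cell cannot be told apart.

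**Figure D1:**
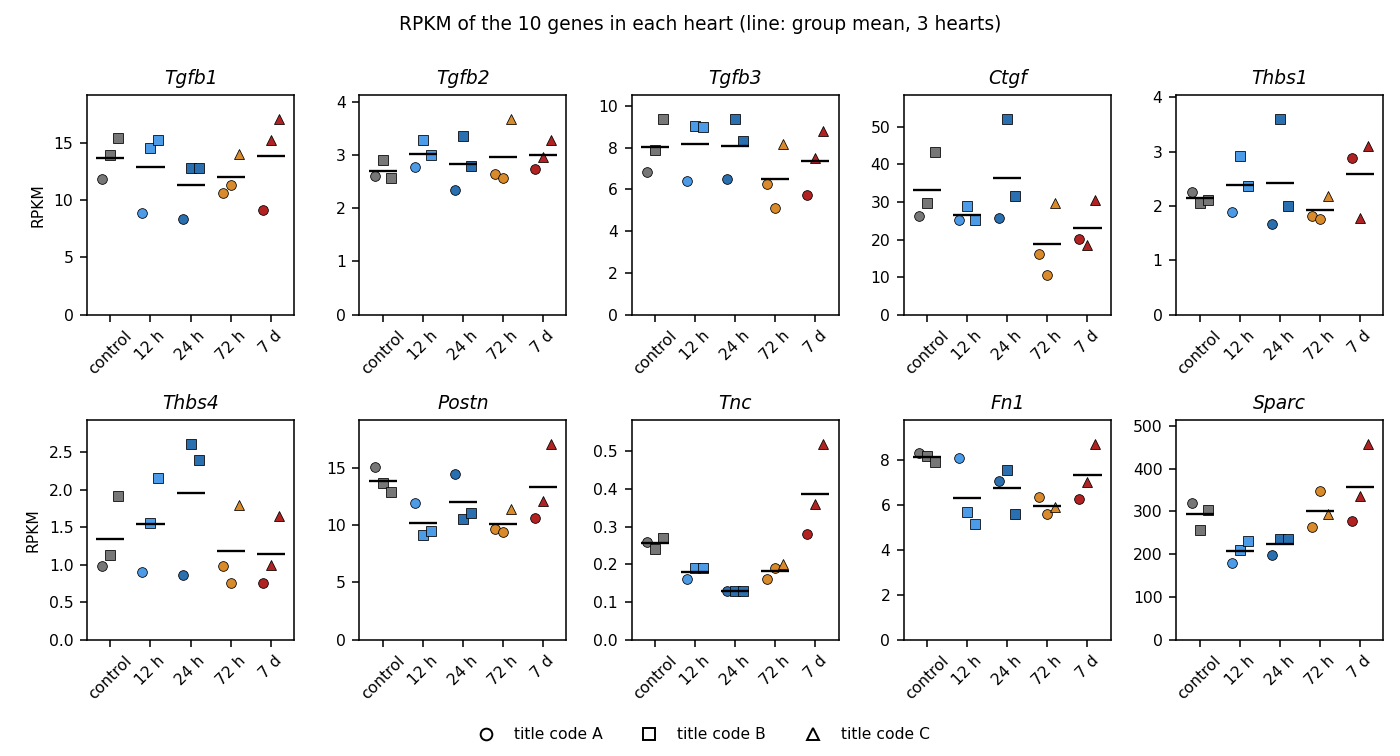
RPKM (vertical axes, from 0, linear) of the 10 genes in each of the 15 hearts by group (horizontal axes); each point is 1 heart, its shape gives the title code, and the line is the mean of 3 hearts. Sparc and Tnc have low points at 12 h and 24 h and their highest points at 7 d, while in Tgfb1, Tgfb3 and Thbs4 the circles of code A sit lowest within every group.

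Sparc, a collagen-binding matricellular protein also called osteonectin, was by far the most abundant of the 10 mRNAs per length (mm9 chromosome 11, 55208002 to 55233582, minus strand). The control hearts had 321, 257 and 303 RPKM. The hearts at 12 h had 179, 211 and 231 RPKM, and those at 24 h had 198, 234 and 237 RPKM. All 6 of these early hearts lay below the lowest control heart. At 72 h the values were 264, 349 and 293 RPKM, within or near the control range, and at 7 d they were 278, 337 and 458 RPKM. Every 7 d heart lay above every heart at 12 h and 24 h, while the 7 d and control groups overlapped.

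Sparc was higher at 7 d than at 12 h by 0.76 on the log2 scale (SE 0.17, limma, adjusted p = 0.00761), with 1 of 9 genes called where 15.6% of all tested genes were. It was higher at 7 d than at 24 h by 0.65 (SE 0.17, limma, adjusted p = 0.0178), again 1 of 9 where 15% of all tested genes were called. The median difference over all tested genes was 0.13 in both of these comparisons. Against control, Sparc differed by -0.50 at 12 h (limma, adjusted p = 0.249), -0.39 at 24 h (0.502), 0.04 at 72 h (0.94) and 0.26 at 7 d (0.381). In order of group means the levels ran from 12 h (207 ± 26.2 RPKM, SD, n = 3) over 24 h (223 ± 21.5), control (293 ± 32.6) and 72 h (302 ± 43.1) to 7 d (358 ± 91.9), and none of the 4 steps between neighbours in that order was called. Of the hearts of code A alone, with 1 heart in each of these groups, 7 d exceeded 12 h by 0.63 and 24 h by 0.49. Within code A the 7 d heart did not exceed the control heart (-0.21) or the 72 h hearts (-0.13, 1 heart against 2). The 7 d hearts at 337 and 458 RPKM have code C. With the Y-linked mRNA as a covariate the difference at 7 d was 0.62 from 12 h (limma, adjusted p = 0.212) and 0.60 from 24 h (limma, adjusted p = 0.0518), and the 12 h and 7 d groups do not share a level of that mRNA. The call against 24 h was also lost with the title code (0.58, limma, adjusted p = 0.0839), with median-ratio scaling (0.52, adjusted p = 0.0514), and without replicate 1 of 24 h (0.57, adjusted p = 0.0716) or replicate 3 of 7 d (0.46, adjusted p = 0.0853).

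Tnc, tenascin C, is a hexameric matricellular protein that the adult heart makes little of outside injury. Its mRNA (mm9 chromosome 4, 63620819 to 63681760, minus strand, with exons overlapped by 8030451A03Rik on the other strand) was the lowest of the 10. The control hearts had 0.26, 0.24 and 0.27 RPKM. At 12 h the values were 0.16, 0.19 and 0.19, and at 24 h all 3 hearts had 0.13 RPKM. All early hearts thus lay below all control hearts, and the 24 h hearts below those of every other group. At 72 h the values were 0.16, 0.19 and 0.20 RPKM, still under the controls, and at 7 d they were 0.28, 0.36 and 0.52 RPKM, above every heart of the other 4 groups.

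By mean RPKM, Tnc at 7 d was 2.97 times its level at 24 h, 2.15 times that at 12 h, 2.11 times that at 72 h and 1.51 times that in control hearts. In a fit of all 16199 genes without the minimum, where the pseudocount of 0.5 exceeds most of its values, Tnc was called higher at 7 d than at 24 h (log2 difference 0.48, limma, adjusted p = 0.00127), 12 h (0.37, adjusted p = 0.00593) and 72 h (0.37, adjusted p = 0.0258). In that fit 10.8%, 11.5% and 1.81% of all genes were called in the 3 comparisons. Against control the difference at 7 d was 0.22 (limma, adjusted p = 0.0925), where 7.28% of all genes were called. That difference was called with quantile scaling (0.22, limma, adjusted p = 0.0386) and without replicate 1 of 7 d (0.31, adjusted p = 0.013). It was not called without replicate 3 of 7 d (0.11, limma, adjusted p = 0.206). Nor was it called with the title code (0.13, limma, adjusted p = 0.432) or the Y-linked mRNA (0.22, adjusted p = 0.288). Within code A, with 1 heart against 1, the 7 d heart was 0.04 above the control heart. With the title code in this fit, the difference from 12 h was 0.28 (limma, adjusted p = 0.0719), with the Y-linked mRNA it was 0.37 (adjusted p = 0.136), and the difference from 24 h was still called with either (adjusted p = 0.0205 and 0.00474). Without replicate 1 or 2 of 72 h or replicate 2 of 7 d, the difference from 72 h was no longer called (adjusted p = 0.131, 0.0807 and 0.0922). The values have 2 decimals, so a step of 0.01 RPKM is a sizeable part of each.

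**Figure D2:**
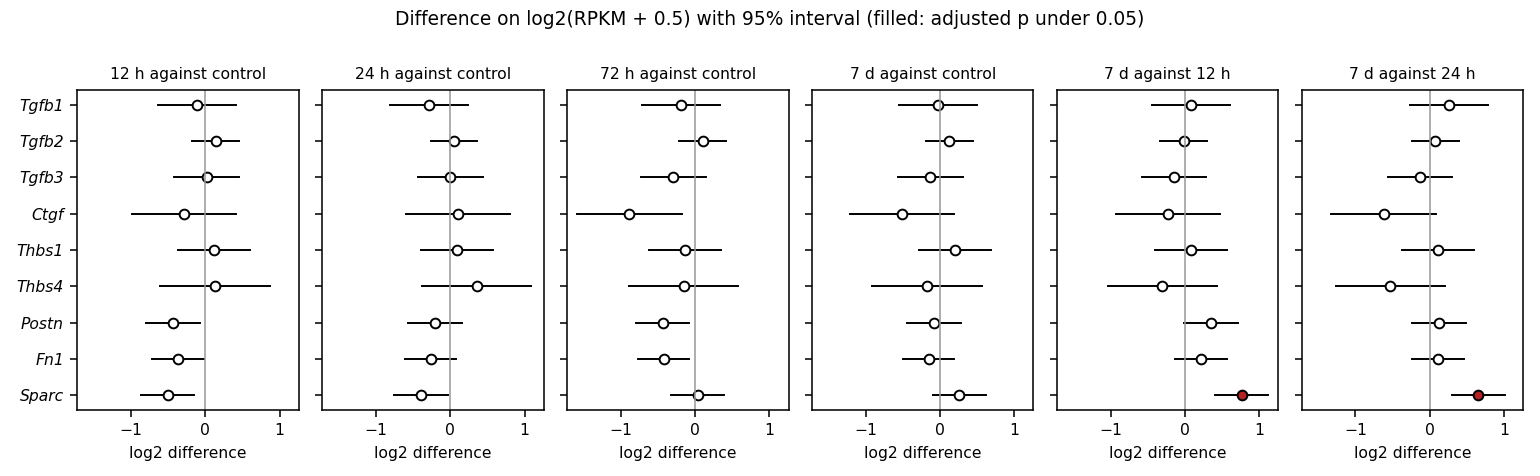
Difference of the 9 tested genes on the log2(RPKM + 0.5) scale (horizontal axes) in 6 comparisons; points are limma estimates, bars are 95% intervals and filled points are called. The only filled points are those of Sparc at 7 d against 12 h (0.76) and against 24 h (0.65).

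Of the ligands, Tgfb1 (mm9 chromosome 7, 26472021 to 26490096, plus strand), the isoform most tied to fibrosis, was the most abundant per length. The control hearts had 11.8, 13.9 and 15.4 RPKM, those at 12 h 8.88, 14.5 and 15.2, and those at 24 h 8.31, 12.8 and 12.7 RPKM. The hearts had 10.6, 11.3 and 14.0 RPKM at 72 h and 9.12, 15.3 and 17.1 RPKM at 7 d. The spread within a group exceeded any shift between group means, which ran from 11.3 to 13.8 RPKM. Differences from control lay between -0.28 at 24 h and -0.03 at 7 d on the log2 scale.

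Tgfb2 (mm9 chromosome 1, 188447065 to 188529871, minus strand), the ligand best known for shaping the valves of the embryonic heart, was the scarcest of the 3 ligands. It was at 2.61, 2.91 and 2.56 RPKM in control hearts and between 2.34 and 3.68 RPKM in the 12 induced hearts. All groups overlapped, and the differences from control, from 0.05 to 0.14 on the log2 scale, had the narrowest intervals of the 9 genes, with a highest bound of 0.46. It was called in no comparison.

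Tgfb3 (mm9 chromosome 12, 87397694 to 87419991, minus strand), a ligand that activates the same receptors as Tgfb1, was at 6.82, 7.87 and 9.38 RPKM in control hearts. It was at 6.42, 9.04 and 9.0 RPKM at 12 h and 6.49, 9.38 and 8.34 RPKM at 24 h. At 72 h it was at 6.27, 5.13 and 8.16 RPKM and at 7 d at 5.73, 7.5 and 8.8 RPKM. The groups overlapped throughout, and its lowest estimates were -0.30 at 72 h against 24 h (limma, adjusted p = 0.678) and -0.29 at 72 h against control (limma, adjusted p = 0.564).

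Ctgf, a CCN-family protein that binds integrins and growth factors and is a classic product of TGF-beta signalling (mm9 chromosome 10, 24315248 to 24318489, plus strand, with exons overlapped by Gm15270 on the other strand), had the largest standard error of the 9 genes after Thbs4 (0.33 and 0.34 on the log2 scale). The control hearts had 26.3, 29.8 and 43.3 RPKM, and those at 12 h had 25.2, 29.0 and 25.3 RPKM. At 24 h the values were 25.8, 52.1 and 31.5 RPKM, at 72 h 16.3, 10.7 and 29.8 RPKM, and at 7 d 20.1, 18.5 and 30.6 RPKM. The hearts of code A at 72 h were the lowest of the series, and the third 72 h heart, of code C, lay within the control range.

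Ctgf differed from control by -0.88 at 72 h (SE 0.33, 95% interval -1.58 to -0.18, limma, adjusted p = 0.251) and by -0.52 at 7 d (limma, adjusted p = 0.377). Between 24 h and 72 h, where 0.654% of all tested genes and 0 of 9 members were called, the difference was -0.99 (limma, adjusted p = 0.237). Without the third 72 h heart, Ctgf was called lower by -1.27 from control (limma, adjusted p = 0.0428). From 24 h it was called lower by -1.37 (limma, adjusted p = 0.0402). Without that heart 269 and 138 of all 10557 tested genes were called in these comparisons, against 63 and 69 with all hearts. The 72 h hearts that remain all have code A. In the fit with group and title code, Ctgf was 0.39 higher in code B than in A, uncalled (limma, adjusted p = 0.178). With all hearts kept and library quality weights in the fit, which give hearts unequal weight, it was also called lower at 72 h, by -1.15 from control (limma, adjusted p = 0.00321) and -1.26 from 24 h (limma, adjusted p = 0.0066). In that fit it was called lower at 7 d too, by -0.70 from control (limma, adjusted p = 0.0311) and -0.82 from 24 h (limma, adjusted p = 0.0192). Of all 10557 tested genes, that fit called 3955 at 72 h against control and 1579 at 72 h against 24 h. At 7 d it called 3317 against control and 3982 against 24 h. Within code A the 72 h hearts lay 0.97 below control and 0.94 below 24 h on the log2 scale, with 2 hearts against 1.

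The thrombospondins bind calcium and matrix, and Thbs1 is also known to release TGF-beta from its latent complex. Thbs1 (mm9 chromosome 2, 117937612 to 117952869, plus strand) was at 2.25, 2.06 and 2.11 RPKM in control hearts and ranged from 1.66 to 3.6 RPKM in the induced hearts, with differences from control between -0.13 and 0.20. Thbs4 (mm9 chromosome 13, 93521545 to 93564773, minus strand), a thrombospondin that protects the overloaded heart in mice, was at 0.98, 1.13 and 1.92 RPKM in control hearts. The Thbs4 values ran from 0.76 to 2.61 RPKM in the induced hearts, and its largest estimate against control, 0.36 at 24 h, had a 95% interval from -0.38 to 1.09. For both thrombospondins every induced group overlapped with control.

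Postn, periostin, is a matricellular marker of activated cardiac fibroblasts (mm9 chromosome 3, 54165031 to 54194961, plus strand). The control hearts had 15.1, 13.6 and 12.9 RPKM, those at 12 h 11.9, 9.15 and 9.52, and those at 24 h 14.4, 10.6 and 11.1 RPKM. At 72 h the values were 9.63, 9.39 and 11.4 RPKM and at 7 d 10.7, 12.1 and 17.1 RPKM. All hearts at 12 h and 72 h lay below all controls, whereas the 24 h and 7 d groups overlapped with them.

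Postn differed from control by -0.43 at 12 h (limma, adjusted p = 0.318) and -0.44 at 72 h (adjusted p = 0.271). When the title code entered the fit, Postn was called lower than control at 12 h (-0.43, limma, adjusted p = 0.033), 72 h (-0.75, adjusted p = 0.012) and 7 d (-0.51, adjusted p = 0.037), and lower at 72 h than at 24 h (-0.54, adjusted p = 0.044). In the fit with the title code 7.31%, 4.69%, 12.7% and 2.9% of all tested genes were called in those 4 comparisons, against 1, 2, 1 and 1 of the 9 genes, and none of the 9 was called at 24 h, where 3.09% of all tested genes were. Within code A the 72 h hearts were 0.64 below the control heart and the 7 d heart 0.48 below it. Within code B the 12 h hearts were 0.48 and the 24 h hearts 0.28 below the controls, with 2 hearts against 2. No control heart has code C, so for the code C hearts at 72 h and 7 d the comparison with control rests on the fit. With both the title code and the Y-linked mRNA in the fit, 0 of the 9 genes were called against control, and with the Y-linked mRNA alone the Postn estimate at 7 d was 0.14 (limma, adjusted p = 0.736).

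Fn1, fibronectin, the matrix glycoprotein on which collagen and latent TGF-beta complexes are laid down (mm9 chromosome 1, 71632094 to 71699774, minus strand, with exons overlapped by Apol7d on the other strand), followed Postn more closely than any other member. The control hearts had 8.32, 8.17 and 7.89 RPKM, those at 12 h 8.06, 5.69 and 5.13, and those at 24 h 7.07, 7.54 and 5.59 RPKM. At 72 h the values were 6.34, 5.58 and 5.91 RPKM and at 7 d 6.24, 7.02 and 8.71 RPKM. All hearts at 24 h and 72 h lay below all controls. The difference from control was -0.42 at 72 h (limma, adjusted p = 0.266), and with the title code in the fit it was -0.63 and called (limma, adjusted p = 0.049).

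The comparisons of neighbouring times gave no calls among the 9 genes. The counts were 0 of 9 for 24 h against 12 h, where 0.559% of all tested genes were called, and 0 of 9 for 7 d against 72 h, where 2.52% were. At an unadjusted p under 0.05 there were 0 genes in each. For 72 h against 24 h, also with 0 of 9 called, there were 2, Ctgf (-0.99, given above) and Sparc, which was at 0.43 (limma, adjusted p = 0.333) with every 72 h heart above every 24 h heart. For 7 d against 72 h the lowest adjusted p was that of Postn (log2 difference 0.35, limma, adjusted p = 0.313).

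Several members differed more by title code than by time. Tgfb1 was at 8.31 to 11.8 RPKM (median 9.85) in the 6 hearts of code A and at 12.7 to 17.1 RPKM (median 14.5) in the 9 hearts of codes B and C. Tgfb3 was at 5.13 to 6.82 RPKM (median 6.35) and at 7.5 to 9.38 RPKM (median 8.8), and Thbs4 at 0.76 to 0.98 RPKM (median 0.88) and at 1.0 to 2.61 RPKM (median 1.79). These 3 genes showed no overlap between code A and the rest, although each code A set includes hearts from all 5 groups. For Thbs4 the gap was narrow, from 0.98 to 1.0 RPKM. The share of all tested genes without such overlap was not counted, so whether these genes stand out in this is not known.

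In the fit with group and title code, 4 of the 9 genes were called between codes B and A, where 35.3% of all tested genes were called, and the same 4 between codes C and A, where 34% were. Tgfb1 was higher in code B than in A by 0.53 and in code C than in A by 0.57 (limma, adjusted p = 0.00174 and 0.00394). Tgfb3 was higher by 0.40 and 0.48 (limma, adjusted p = 0.00494 and 0.00583), and Thbs4 by 0.77 and 0.63 (limma, adjusted p = 0.00528 and 0.0345). Postn was lower in code B by -0.31 and higher in code C by 0.33 (limma, adjusted p = 0.0229 and 0.0398). The median over all tested genes was 0.04 for code B and 0.15 for code C. The summed smooth muscle markers (Acta2, Tagln, Myh11 and Cnn1) ranged from 57.9 to 179 RPKM over the hearts, with all 4 genes detected in each group, and their part in these differences was not tested.

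**Figure D3:**
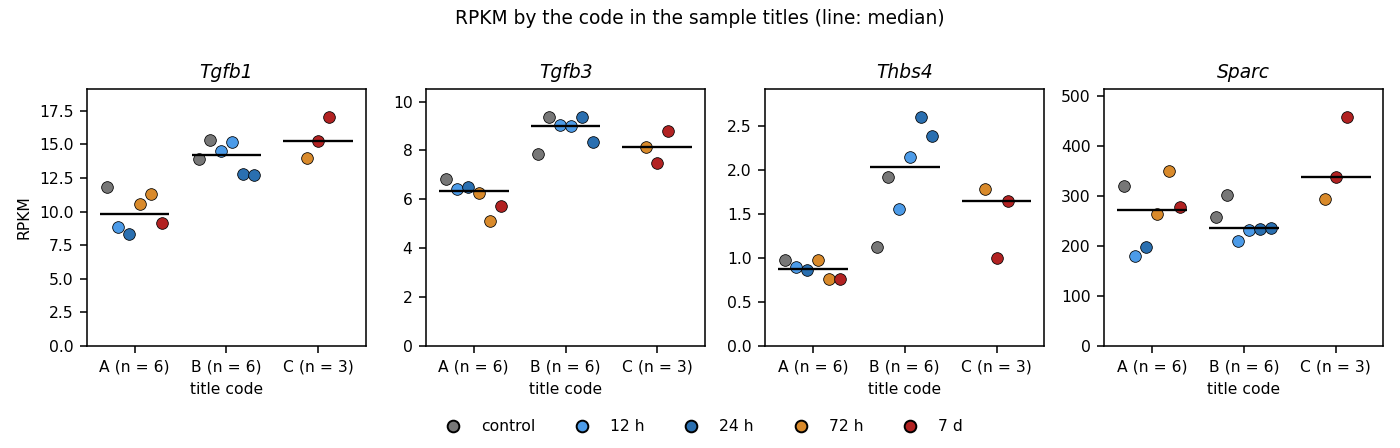
RPKM (vertical axes, from 0, linear) of Tgfb1, Tgfb3, Thbs4 and Sparc in the 15 hearts by title code (horizontal axes); points are hearts coloured by group and lines are medians. For Tgfb1, Tgfb3 and Thbs4 the 6 hearts of code A lie below all others, while Sparc overlaps between codes and its lowest points are early induced hearts.

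Correlations of log2(RPKM + 0.5) between members are a description over 15 hearts that share groups and title codes. Tgfb3 went with Thbs4 (r = 0.88), Ctgf (0.82) and Tgfb1 (0.76), and after group means were removed these values were 0.93, 0.82 and 0.90. Tgfb1 and Ctgf had a lower r with each other, 0.35. Postn went with Fn1 (r = 0.81, and 0.67 with group means removed), while the highest r of either with a ligand, Ctgf or a thrombospondin was 0.39 (Fn1 with Ctgf). Sparc was nearest to Tgfb1 (r = 0.51). Over the 12 induced hearts, correlation with Celf2 mRNA ranged from -0.61 for Thbs4 and -0.54 for Tgfb3 to 0.48 for Fn1 and 0.55 for Sparc.

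**Figure D4:**
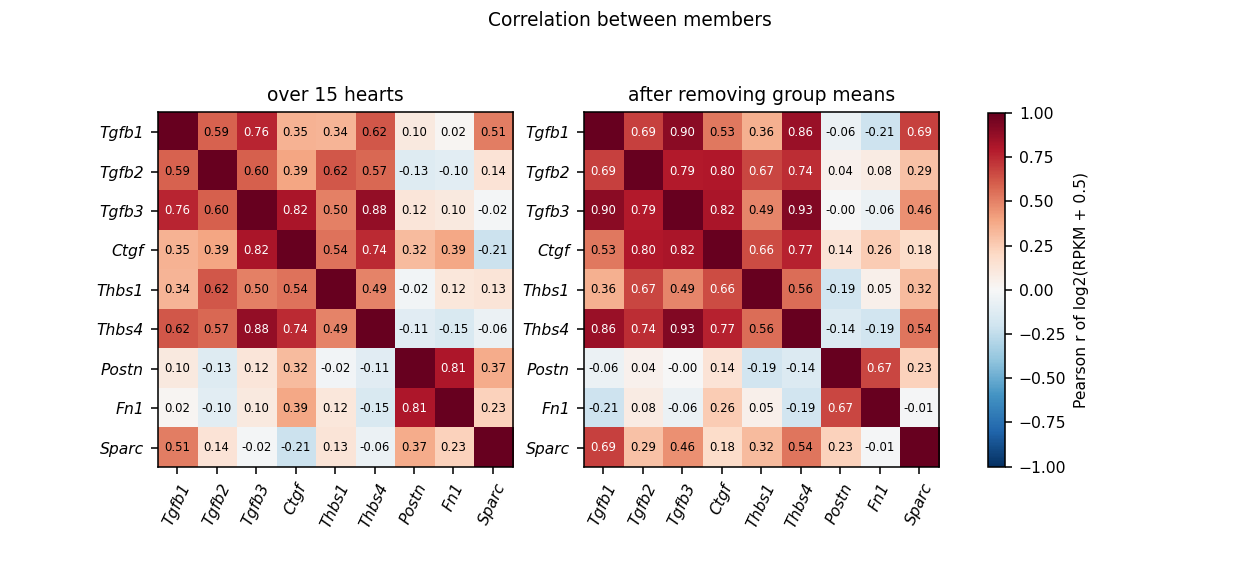
Pearson correlation of log2(RPKM + 0.5) between the 9 tested genes over 15 hearts (left) and after the group means were removed (right); colour and printed value give r from -1 to 1. Over all hearts Tgfb3 has r of 0.76 to 0.88 with Tgfb1, Ctgf and Thbs4, Tgfb1 and Ctgf have 0.35, and Postn and Fn1 have 0.81, or 0.67 within groups.

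The genes most like each member, of all 10557 tested, were found by the same correlation. For Thbs4 they were Lmod1 (r = 0.96), Mylk (0.95) and Myh11 (0.95), genes tied to smooth muscle contraction. For Tgfb3 they were Eng (0.95), which encodes an endothelial co-receptor of TGF-beta, Leng8 (0.95) and Pltp (0.94), and for Tgfb1 they were Tnks1bp1, Map3k11 and Plekhh3 (each 0.97). For Postn they were Gnb4 (0.88), Fstl1 (0.87), which encodes a secreted follistatin-like protein, and Slc37a3 (0.86), and for Fn1 Igsf3 (0.90), Dip2a (0.89) and Lrp1 (0.88), an endocytic receptor. For Sparc they were Rad51ap1 (0.95), Myh9 (0.95), which encodes a non-muscle myosin, and Vash1 (0.94). For Ctgf they were Gpr56, Trpv4 and Fbln2 (each 0.89), for Thbs1 Cyr61 (0.84), Mafk (0.77) and Arhgap17 (0.77), and for Tgfb2 Ubl4 (0.86), Uqcrq (0.85) and Slc25a28 (0.84). Cyr61, like Ctgf, encodes a CCN-family protein.

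The rest of the pathway was read from 8 lists of other genes: receptors, latent storage and activation, SMADs and their regulators, binding proteins, other family ligands, target genes, other matricellular proteins and receptors of matricellular proteins. At 7 d against control, where 9.99% of all tested genes were called, 1 gene of the lists rose and 1 fell. Gdf15, a stress-induced member of the TGF-beta family, was at 1.91, 1.79 and 1.76 RPKM in control hearts and at 6.99, 10.4 and 5.93 RPKM at 7 d, a rise of 1.80 (SE 0.25, limma, adjusted p = 0.000481). Itgb6, the beta subunit of an integrin that activates latent TGF-beta, was at 3.11, 2.19 and 2.98 RPKM in control hearts and at 0.69, 0.54 and 0.35 RPKM at 7 d, a fall of -1.67 (SE 0.22, limma, adjusted p = 0.000367). With the title code and the Y-linked mRNA together in the fit, the Gdf15 difference was 1.47 and not called (limma, adjusted p = 0.114). For both genes the groups did not overlap, and neither belongs to the matrix itself.

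None of the 5 TGF-beta receptor genes (Tgfbr1, Tgfbr2, Tgfbr3, Eng and Acvrl1), the 12 tested SMAD genes and regulators, the 6 tested binding proteins, the 11 tested target genes, the 13 tested other matricellular genes or the 7 tested receptors of matricellular proteins was called at 7 d against control. Their median log2 differences were -0.08, 0.03, 0.01, -0.10, -0.22 and 0.19, beside 0.03 over all tested genes. Of the 9 tested storage and activation genes only Itgb6, and of the 5 tested other ligands only Gdf15, was called. The target gene list holds 2 genes that are also in the SMAD list (Smad7 and Skil).

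Earlier against control the 8 lists held a single call. Col3a1, the main fibrillar collagen of soft tissue beside collagen I, fell at 24 h from 104, 89.2 and 83.1 RPKM in control hearts to 45.6, 40.7 and 48.4 RPKM (log2 difference -1.02, SE 0.16, limma, adjusted p = 0.0337). That call was lost when any of the 6 hearts was left out (limma, adjusted p = 0.091 to 0.174), although the difference stayed between -0.94 and -1.09. Against 12 h, Col3a1 at 24 h was lower by -0.81 (limma, adjusted p = 0.035), a call that was also lost without certain single hearts (limma, adjusted p up to 0.187).

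Between 7 d and 24 h, where 15% of all tested genes were called, the lists moved in both directions. Calls higher and lower were 1 and 2 of 9 tested storage and activation genes. They were 2 and 1 of 11 target genes and 1 and 1 of 6 binding proteins. Higher were 1 of 12 SMAD genes and regulators, 1 of 5 other ligands and 1 of 7 receptors of matricellular proteins. Of 13 other matricellular genes 1 was lower, and none of 5 TGF-beta receptors was called. Higher at 7 d were Gdf15 (1.99), Fbn1 (1.23), which encodes the fibrillin of microfibrils that hold latent TGF-beta, Col3a1 (1.05), Fstl3 (0.96), Sdc4 (0.86), Col1a1 (0.78) and Smad3 (0.64), the receptor-activated SMAD of the TGF-beta branch. Lower at 7 d were Itgb6 (-1.68), Spock2 (-1.18), Tgfbi (-0.55), Ltbp1 (-0.35) and Dcn (-0.33), which encodes the proteoglycan decorin. All of these passed limma with adjusted p between 0.000185 and 0.0438. Leaving out a single heart ended the call of Fstl3, Sdc4, Col1a1, Smad3, Tgfbi, Ltbp1 or Dcn in at least 1 case each, with adjusted p up to 0.192 (limma), and of none of the other 5. With the title code in the fit Smad3 (0.38, limma, adjusted p = 0.22) and Dcn (-0.32, adjusted p = 0.0584) were not called. With the Y-linked mRNA, Col1a1, Fstl3 and Tgfbi were not (limma, adjusted p = 0.105, 0.0863 and 0.0747). With both covariates together, Fbn1, Sdc4 and Spock2 also lost the call (limma, adjusted p = 0.0756, 0.21 and 0.0527). Median-ratio scaling ended the call of Col1a1 (limma, adjusted p = 0.0714). Quantile scaling ended those of Col1a1 and Fstl3 (limma, adjusted p = 0.0589 and 0.0541).

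Between 7 d and 12 h, where 15.6% of all tested genes were called, 3 of the 7 tested receptors of matricellular proteins were higher at 7 d, the integrin subunit genes Itga9 (0.88), Itgb1 (0.48) and Itga5 (0.47), with limma adjusted p of 0.0152, 0.0168 and 0.0493. Higher too were Gdf15 (2.81), the matricellular gene Wisp2 (1.14), Fstl1 (0.59) and Timp1 (0.42), and Itgb6 was lower (-2.15), with limma adjusted p from 1.37e-05 to 0.0361. With the Y-linked mRNA in the fit Gdf15 and Itgb6 were still called, and Itga9, Itgb1, Itga5, Wisp2, Fstl1 and Timp1 were not. These 6 also lost the call when certain single hearts were left out (limma, adjusted p up to 0.183). Median-ratio scaling ended the calls of Itgb1, Itga5 and Timp1 (limma, adjusted p = 0.0891, 0.0825 and 0.0842). Quantile scaling ended those of Itga9, Itgb1, Itga5 and Timp1 (limma, adjusted p = 0.0555, 0.1355, 0.066 and 0.132). The title code ended those of Fstl1 and Timp1 (limma, adjusted p = 0.2985 and 0.1095). With the title code and the Y-linked mRNA together, Gdf15 was not called either (2.40, limma, adjusted p = 0.061). Between 7 d and 72 h, 2.52% of all tested genes were called. Of the lists, Gdf15 (2.13) and Timp1 (0.57) were higher at 7 d and Itgb6 was lower (-1.26). Their limma adjusted p were 0.000528, 0.0291 and 0.0106. Leaving out a single heart ended the call of Timp1 or Itgb6 there (limma, adjusted p up to 0.134). Quantile scaling also ended that of Timp1 (0.46, limma, adjusted p = 0.0786).

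**Figure D5:**
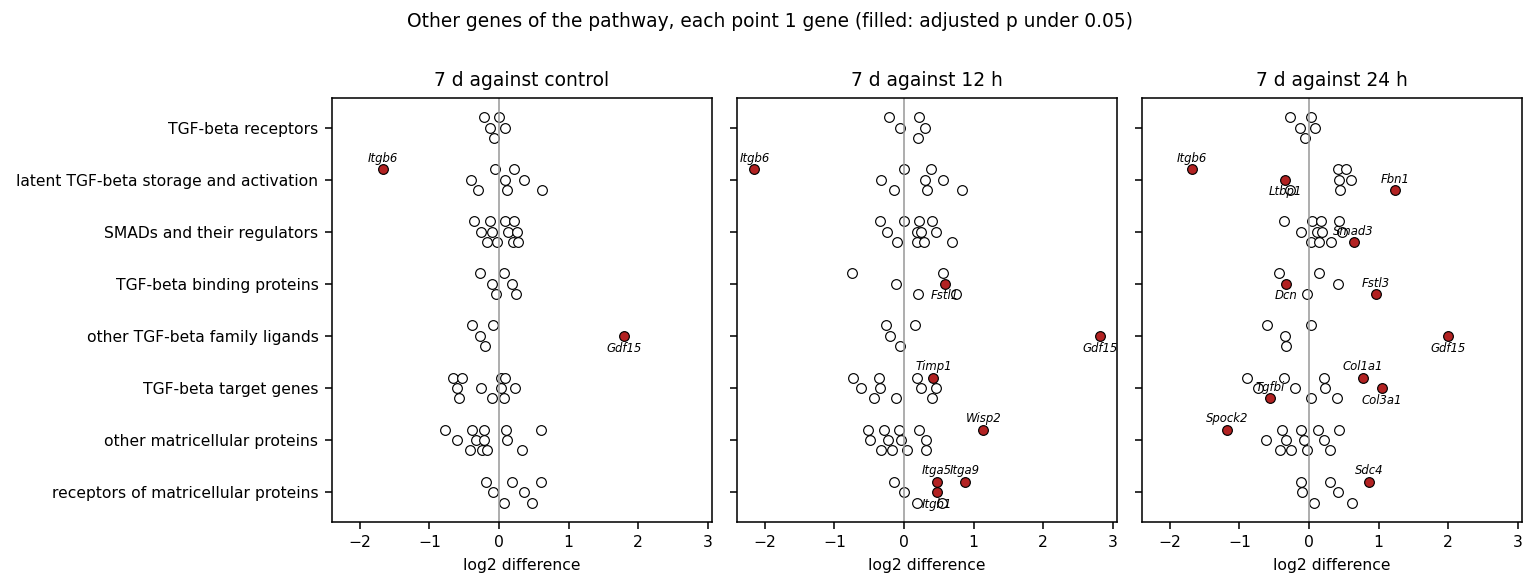
Log2 difference on log2(RPKM + 0.5) (horizontal axes) of the tested genes of 8 pathway lists (rows) at 7 d against control, 12 h and 24 h; each point is 1 gene and filled, named points are called by limma. At 7 d against control only Gdf15 (1.80) and Itgb6 (-1.67) are filled.

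The cells that make these mRNAs were followed by marker sums. The 7 fibroblast markers summed to 500 to 531 RPKM in control hearts, 482 to 516 at 12 h, 508 to 556 at 24 h, 471 to 538 at 72 h and 455 to 510 RPKM at 7 d, with none at 0 and with ranges that overlap with control at every time. Dcn, at 301 to 414 RPKM over the hearts, makes up most of this sum, and between 7 d and 24 h Dcn was lower while Col1a1 was higher. The 7 macrophage markers summed to 130 to 134 RPKM in control hearts, 86.4 to 141 at 12 h, 104 to 119 at 24 h, 71.6 to 112 at 72 h and 99.8 to 136 RPKM at 7 d, so that the hearts at 24 h and 72 h lay below the controls. None of the 6 tested macrophage markers was called at 24 h or 72 h against control. Their median log2 differences were -0.17 and -0.35, beside -0.10 and -0.08 over all tested genes. The 5 endothelial markers summed to 194 to 204 RPKM in control hearts, 171 to 188 at 12 h, 161 to 193 at 24 h, 164 to 185 at 72 h and 182 to 250 RPKM at 7 d, below the controls at 12 h, 24 h and 72 h. No endothelial marker was called against control at these 3 times. Their median log2 differences were -0.11, -0.06 and -0.14, beside -0.10, -0.10 and -0.08 over all tested genes. Of the 5 endothelial markers only Kdr, a receptor of vascular endothelial growth factor, was called at 7 d against 24 h (0.67, limma, adjusted p = 0.00144). In that comparison 15% of all tested genes were called. Of the 5 markers 3 had a difference above 0, and their median was 0.03 beside 0.13 over all tested genes. The 6 cardiomyocyte markers summed to 28530 to 30897 RPKM in control hearts and to 24847 to 26344 RPKM at 7 d, without overlap, and Myh6 fell by 0.36 on the log2 scale (limma, adjusted p = 0.0261). The 3 tendon and valve markers summed to 3.19 to 7.37 RPKM at 12 h, 3.32 to 6.3 at 24 h and 7.39 to 15.5 at 7 d, and Scx, a tendon transcription factor gene, was higher at 7 d than at 12 h (1.48, limma, adjusted p = 0.0126) and 24 h (1.43, limma, adjusted p = 0.0149), the comparisons in which Sparc was called. Scx carries that sum: Chad was at 0.94, 1.45 and 2.36 RPKM at 12 h and at 0.87, 0.50 and 1.60 RPKM at 7 d and was not called, and Tnmd, at 0.03 to 0.26 RPKM, was too low to test. The part of any of these cell markers in the differences of the members was not tested. Cardiomyocyte markers were abundant in every heart, as the ventricle label has it, and the 3 atrial markers summed to 23.6 to 311 RPKM, with the highest value at 12 h.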

How the data were processed

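RNA-seq values of 15 ventricles were analysed. The authors mapped reads to mm9 with Bowtie and TopHat, per the labels' processing notes (versions not given in the sources used here), kept uniquely mapping reads and deposited RPKM values. These divide the reads of a gene by its constitutive coding length and by all reads placed uniquely outside ribosomal and mitochondrial sequence, and they have 2 decimals. The sources used here do not state whether counting used the strand. For Ctgf, Tnc and Fn1 reads of genes overlapping on the other strand may not have been separated.

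The 10 genes, the gene lists and the tests were chosen with earlier results of these data known. Groups came from the source names in the labels. For induced hearts a second genotype field names a Celf1 cassette, and the series design describes Celf1 in muscle. Both contradict the titles and were not used. No 2 hearts held identical values, and the lowest rank correlation between hearts was 0.973.

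RPKM values plus a pseudocount of 0.5 were taken to log2, genes averaging under 1 RPKM were dropped, and limma 3.58.1 in R 4.3.3 was run on all 5 groups together (eBayes with trend). In each of 9 comparisons a gene was called when its p, adjusted by Benjamini-Hochberg over all tested genes, was under 0.05. Log2 differences on this scale understate changes of low genes. The alternatives were other pseudocounts (0.1 and 1), no minimum or a minimum of 5 RPKM, median-ratio or quantile scaling, the title code or Y-linked mRNA (mean log2) as a covariate, library quality weights, a fit of the compared groups alone and leaving out each heart. The table gives no read totals. The script was tested on simulated data. From each list, up to 4 called genes with the smallest adjusted p and any called gene moving against the rest were to be named. The other called genes of the lists, and those of the marker lists, were named after their values were seen. Symbols in the table that differ from the lists were matched by Entrez identifier, and Lrrc32, Hba-a1 and Hbb-b2 were not matched. Python 3.11.15 with numpy 2.4.6, pandas 2.3.3 and matplotlib 3.10.9 was used for description and plots.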

Additional observations from a re-analysis of the deposited data

Results flagged for a closer look

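The difference of Sparc between induced groups stood out because it was called between 7 d and 12 h (0.76 on the log2 scale) and between 7 d and 24 h (0.65), while neither 12 h, 24 h nor 7 d differed from control by a called amount. Each is a test of induced groups against each other. In both, every 7 d heart lay above every earlier heart, which restates the values behind the call and is not further support for it.

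Tnc lay below the minimum mean for the test, yet its mean at 7 d (0.387 RPKM, n = 3) was above every control heart, the highest of which had 0.27 RPKM.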

How the results depend on the processing

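No paired analysis was possible because the labels give no replicate numbers that link hearts of different groups. The call of Sparc at 7 d against 12 h held in all alternatives (0.57 to 0.93 on the log2 scale, adjusted p = 0.000309 to 0.0484) except with the Y-linked mRNA (0.62, adjusted p = 0.212) or that and the title code (0.53, 0.59). At 7 d against 24 h it was lost with median-ratio scaling (0.52, adjusted p = 0.0514), the title code (0.58, 0.0839), the Y-linked mRNA (0.60, 0.0518), both covariates (0.49, 0.328), and without 24 h replicate 1 (0.57, 0.0716) or 7 d replicate 3 (0.46, 0.0853). The range without a heart was 0.46 to 0.82.

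The number of members called changed as follows. With the title code it was 1 at 12 h, 2 at 72 h and 1 at 7 d against control, 1 at 72 h against 24 h and 0 at 7 d against 24 h. With the Y-linked mRNA, alone or with the code, it was 0 at 7 d against 12 h and against 24 h. With library quality weights, estimated gene by gene because the default estimation did not converge, it was 2, 4 and 1 at 12 h, 72 h and 7 d against control and 3 at 72 h against 24 h and at 7 d against 72 h, 12 h and 24 h. These weights also raised the number of all genes called in each of these comparisons. Against control it rose from 41 to 1355 at 12 h, 63 to 3955 at 72 h and 1055 to 3317 at 7 d. At 72 h against 24 h it rose from 69 to 1579. At 7 d it rose from 266 to 5005 against 72 h, 1651 to 5075 against 12 h and 1579 to 3982 against 24 h. Without the minimum, at either pseudocount, the number of members called was 1 at 7 d against 72 h and 2 against 12 h and 24 h, Tnc being the added gene. Median-ratio scaling gave 0 at 7 d against 24 h. Leaving out a heart gave 0 to 1 at 72 h against control, 72 h against 24 h and 7 d against 24 h. All other counts were as in the text.

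Estimates that changed sign were uncalled in the fit as reported. These were Fn1 at 7 d against 12 h (-0.038 with the code, -0.25 with both covariates), Postn at 7 d against 12 h (-0.077 with the code) and against control (0.14 with the Y-linked mRNA, and 0.055 to -0.27 when a heart was left out), Tgfb1 at 7 d against 72 h (-0.026 with the code, -0.027 with both, and -0.0079 to 0.43 when a heart was left out) and Tgfb3 at 7 d against 72 h (-0.0017 with both). With library quality weights, 4 of these comparisons were called: Fn1 and Postn at 7 d against 12 h (0.30 and 0.42, limma, adjusted p = 0.029 and 0.00595) and Tgfb1 and Tgfb3 at 7 d against 72 h (0.43 and 0.31, adjusted p = 0.0131 and 0.0378). With the code, Postn at 7 d against control was called (-0.51, adjusted p = 0.0367). The cause was not tested.

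Over all genes, the calls at 7 d against 12 h were 1241 higher and 410 lower, but 784 and 744 with median-ratio and 743 and 785 with quantile scaling. At 7 d against 24 h they were 1173 and 406, but 711 and 751, or 692 and 734. At 12 h against control 41 genes were called and 772 with the title code; at 24 h 10 and 326, at 72 h 63 and 495. With the Y-linked mRNA 243 genes were called at 7 d against 12 h and 415 at 7 d against control, where 1055 were called. Both covariates together were added after the data were seen, as was the fit without the minimum at a pseudocount of 0.1 and each combination of no minimum with another setting. Depth is unknown.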
